A study of Homo sapiens with 12 samples.

Results

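Splicing regulators of the SRSF, HNRNP, CLK, TRA2 and DDX families were examined in HEK293T cells that carried a vector or TRPML3, with or without serum. Genes were taken by name: every SRSF gene, every HNRNP gene without a pseudogene ending, CLK1 to CLK4, TRA2A, TRA2B, DDX5 and DDX17, with at least 120 counts summed over all libraries. This gave 42 of the 41878 genes in the count table, of which 12 were SRSF, 22 HNRNP, 4 CLK, 2 TRA2 and 2 DDX genes. Another 4 names matched but had fewer counts: HNRNPCL3 with 8, HNRNPCL4 with 15, HNRNPCL2 with 24 and HNRNPCL1 with 102. Just inside the minimum were SRSF12 with 260, HNRNPA1L2 with 357 and CLK2 with 5047 counts. DDX17 was chosen by its difference between groups in an earlier look at these counts (its CPM values), so its values are given as a description with no test, and counts of genes past a threshold are given for the other 41.

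HEK293T is an established human embryonic kidney line. Cells were transfected with Effectene and 1 µg of a control vector or of a TRPML3 expression plasmid. TRPML3 is the endosomal and lysosomal cation channel of the gene MCOLN3. They were then kept in 10% serum (fed) or without serum for 4 h (starved), a treatment used to induce autophagy. The 4 groups were vector fed, vector starved, TRPML3 fed and TRPML3 starved, each with 3 biological replicates, and polyadenylated RNA was sequenced. All 12 libraries therefore came from transfected cells, and transfection is transient, so the dose of plasmid differs between cells.

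SR proteins, encoded by the SRSF genes, bind exonic enhancers in pre-mRNA and mostly promote exon inclusion, whereas many hnRNP proteins bind silencers and favour skipping. CLK kinases phosphorylate SR proteins and release them from nuclear speckles. DDX5 and DDX17 are paralogous RNA helicases that act in splicing and as transcriptional cofactors. Many of these genes control their own output: a poison exon, when spliced in, sends the transcript to nonsense-mediated decay, so gene-level RNA is only a part of their regulation.

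The promoters of SRSF6, HNRNPU and SRSF3 are shown because the levels of these genes were low together in the fed libraries of replicates 1 and 2, and that of DDX17 because its level was low in all vector fed libraries, as described below. Each run is the 250 bases before the RefSeq transcription start on GRCh38.p14, 5′ to 3′ on the gene's strand, and capitals mark the short core of the cAMP response element, TGACG, on either strand.
DDX17: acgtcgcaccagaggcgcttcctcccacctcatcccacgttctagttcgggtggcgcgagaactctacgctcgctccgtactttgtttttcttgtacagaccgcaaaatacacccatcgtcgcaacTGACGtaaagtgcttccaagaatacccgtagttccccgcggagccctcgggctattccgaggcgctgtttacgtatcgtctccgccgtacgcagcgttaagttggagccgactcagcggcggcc
SRSF6: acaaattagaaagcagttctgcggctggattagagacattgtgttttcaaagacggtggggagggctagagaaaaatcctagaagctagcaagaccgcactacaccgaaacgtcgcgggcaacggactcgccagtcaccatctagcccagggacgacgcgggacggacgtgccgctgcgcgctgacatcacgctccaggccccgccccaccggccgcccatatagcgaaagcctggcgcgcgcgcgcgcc
HNRNPU: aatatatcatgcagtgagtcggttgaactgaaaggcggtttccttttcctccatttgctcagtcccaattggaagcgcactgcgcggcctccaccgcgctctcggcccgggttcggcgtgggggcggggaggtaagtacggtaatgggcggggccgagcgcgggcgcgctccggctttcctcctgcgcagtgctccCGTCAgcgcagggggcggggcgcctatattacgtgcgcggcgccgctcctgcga
SRSF3: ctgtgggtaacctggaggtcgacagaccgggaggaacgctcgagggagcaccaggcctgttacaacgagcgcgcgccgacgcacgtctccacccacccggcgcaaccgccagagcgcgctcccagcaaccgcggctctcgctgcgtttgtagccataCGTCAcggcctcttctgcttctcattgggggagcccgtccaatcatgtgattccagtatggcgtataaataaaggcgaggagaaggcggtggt
The DDX17 window was chr22:38506312-38506561 on the minus strand, inside the bounds of the gene in GENCODE release 29, where its last bases are in the first exon of shorter transcripts. The SRSF6 window was chr20:43457646-43457895 on the plus strand. The HNRNPU window was chr1:244864544-244864793 on the minus strand and the SRSF3 window chr6:36594112-36594361 on the plus strand, each ending in the first bases of the GENCODE 5′ UTR. The core began 124 bases before the start in DDX17, 54 in HNRNPU and 93 in SRSF3, and these letters were not in the SRSF6 window.

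RefSeq promoter entries were found for 38 of the 42 genes, 13 of which had more than 1. TGACG was in a window of 24 of these 38 genes (63.2%), compared with 34.2% of the 13013 tested genes with an entry and 21.2% of all 35116 promoters. The whole element, TGACGTCA, was in none of the 38, and in 3.3% of the tested genes with an entry and 1.65% of all promoters. The letters CCAAT were found in 20 of the 38 genes (52.6%), against 40.9% of tested genes and 32.0% of all promoters. GGGCGG was in 27 of the 38 (71.1%), a share close to the 71.3% of tested genes, and TATAAA was in 7 of 38 (18.4%), against 8.86% of tested genes and 10.7% of all promoters. All motifs were searched on both strands, and those longer than the core were searched separately although TGACGTCA contains TGACG. The core was chosen after the sequences had been seen. A match is a stretch of letters and does not show that a factor binds there.

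MCOLN3 itself was checked first. It had 9.31 to 18.4 CPM (counts scaled to a common library total by TMM) in the 6 vector libraries and 4929 to 58223 CPM in the TRPML3 libraries, so the plasmid labels held in every library. With TRPML3 its median was 6211 CPM in fed cells (4929 to 39972) and 41362 CPM in starved cells (16896 to 58223). The part of this difference in the starvation comparison with TRPML3 and in the interaction was not tested. Library totals were 33101540 to 43700547 counts. Of 6 genes known from HEK293 lines, 5 exceeded 1 CPM in every library (PAX2 had a lowest value of 0.796 CPM). Of 9 markers of blood, endothelial, fibroblast and liver cells, 5 stayed under 1 CPM in every library, and the highest values were 22.7 CPM for COL3A1 and 21.1 CPM for COL1A1. Because these are bulk samples, fewer cells expressing a gene and less RNA per cell cannot be told apart.

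The fed replicate 3 libraries stood apart from their groups. Over all tested genes, vector fed replicate 3 had a mean Spearman correlation of 0.936 with the other vector fed libraries and 0.951 with vector starved replicates 1 and 2. For TRPML3 fed replicate 3 these values were 0.935 and 0.945. Starved replicate 3 libraries were not compared in this way, but some of the 42 genes departed there too. SRSF8 had 46.8 (vector) and 38.1 CPM (TRPML3) in starved replicate 3, against 105 to 114 in starved replicates 1 and 2. For HNRNPAB these values were 818 and 914 CPM, against 799 to 904. Mitochondrial transcripts took 4.83 to 5.70% of counts in the 4 replicate 3 libraries, 2.81 to 4.40% in replicate 1 and 1.05 to 2.52% in replicate 2. TRPML3 fed replicate 3 also had the highest MCOLN3 of its group, at 39972 CPM. Starvation results are therefore given with all 12 libraries and again with the 8 libraries of replicates 1 and 2, an alternative chosen after seeing the data. Because the fed replicate 3 libraries were set apart by their likeness to starved libraries, leaving them out favours larger differences between starved and fed cells, and the p-values from the 8 libraries are given as a description and not as independent support. Whether fed and starved labels were exchanged in replicate 3 was not tested, and the labels were used as given. The part of mitochondrial share and MCOLN3 level in these results was not tested.

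The splicing regulators were among the most abundant transcripts of these cells. Of the 42 genes, 40 lay above the median of the 18030 tested genes and 31 in the top 10%, and their median percentile was 97.3. Scaled by exonic length (38 genes with an identifier in GENCODE 29), HNRNPA1 was highest at 800.1 CPM per kb, and SRSF12 was lowest at 0.129. Within the SRSF genes SRSF3, the smallest SR protein, led with 259 CPM per kb. HNRNPA1L2, a retrocopy of HNRNPA1, was the lowest HNRNP gene at 0.622 CPM per kb. Among the kinases CLK1 had 24.3 CPM per kb and CLK3 1.89. DDX5 had 156 and DDX17 136 CPM per kb, and TRA2A had 42.8 against 22.9 for TRA2B.

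The genes varied between libraries to different degrees. The ratio of the highest to the lowest of the 12 libraries had a median of 2.32 over the 42 genes. Over all tested genes above 0 CPM in every library it was 3.21, and the sets were not matched for abundance. The ratio was under 2 for 16 of the 42 genes, including HNRNPA1, HNRNPK, HNRNPF and SRSF4, and 5 or more for 8. The widest was HNRNPM, a regulator of exon skipping, whose lowest library had 3.52 CPM and whose highest had 430.2, a ratio of 122. HNRNPA1L2 followed at 27.8, then HNRNPUL2 at 20.3, SRSF10 at 8.81, SRSF6 at 5.90, SRSF2 at 5.63, DDX17 at 5.29 and SRSF12 at 5.14.

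**Figure D1:**
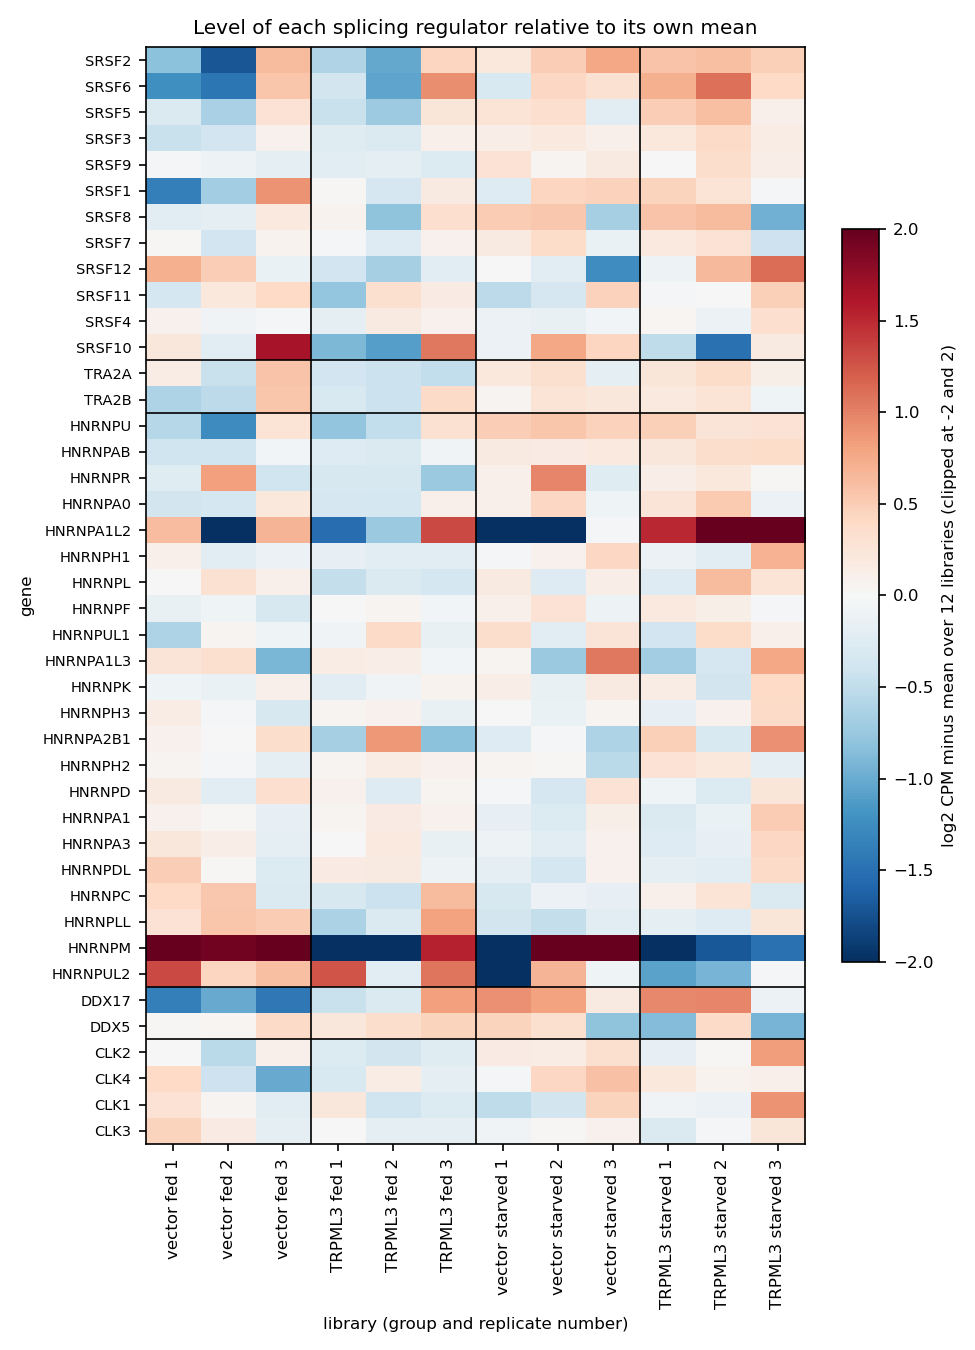
Each row is a gene and each column a library, and colour gives log2 CPM minus the gene's mean over the 12 libraries, clipped at -2 and 2; black lines part the families (SRSF, TRA2, HNRNP, DDX, CLK from top to bottom) and the groups. The fed replicate 1 and 2 columns are blue for SRSF2, SRSF6, SRSF5, SRSF3, HNRNPU and TRA2B, and the fed replicate 3 columns are red for them, as most starved columns are.

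Removal of serum for 4 h went with higher RNA of several SR protein genes and of HNRNPU and HNRNPAB, but with all 12 libraries no gene among the 41 passed the adjusted test. SRSF3, SRSF9 and HNRNPAB were the genes whose 6 starved libraries all lay above all 6 fed libraries, which was so for 0.754% of all tested genes, and none lay wholly below (0.499% of tested genes). The average starvation difference, taken over both plasmids, had a median log2 value of 0.17 over the 42 genes, 28 of them above 0, whereas the median of all tested genes was 0.01 with 50.7% above 0. By family, 10 of 12 SRSF genes were above 0 (median 0.29), as were 12 of 22 HNRNP genes (0.10), 3 of 4 CLK genes (0.28) and both TRA2 genes (0.28).

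With edgeR's quasi-likelihood test and Benjamini-Hochberg adjustment over all genes, 0 of the 41 genes had an adjusted p under 0.05 for average starvation, as did 0.0% of tested genes. At an unadjusted p under 0.05 there were 8 of 41, against 9.45% of tested genes. Of these, 7 were higher in starved cells (SRSF2, SRSF3, SRSF5, SRSF9, HNRNPA0, HNRNPAB and HNRNPU; 4.66% of tested genes) and HNRNPUL2 was lower (4.79%). DESeq2's Wald test called HNRNPAB and SRSF9 at an adjusted p under 0.05, where it called 1.6% of tested genes. Without replicate 3, edgeR called 8 of the 41 genes, all of them higher in starved cells, against 4.49% of tested genes in either direction and 2.54% upward. These were SRSF2, SRSF3, SRSF5, SRSF6, TRA2B, HNRNPA0, HNRNPAB and HNRNPU. At an unadjusted p under 0.05 there were then 18 of 41, 14 of them higher, against 23.3% of tested genes. Leaving out replicate 1 or replicate 2 instead gave 0 called genes (0.00547% and 0.0% of tested genes). There 3 and 6 of the 41 had an unadjusted p under 0.05. The share of tested genes at that threshold is not given for these fits, so the 3 and 6 are a description. The replicate 3 libraries include the fed ones that held the higher fed levels of most of the genes called without replicate 3. For SRSF5 and HNRNPA0 the starved replicate 3 libraries were also the lowest of their groups. The part of these levels in the calls was not tested.

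SRSF3, which binds CU-rich motifs and also acts in mRNA export, had 1328, 1395 and 1935 CPM in vector fed replicates 1, 2 and 3 and 1529, 1483 and 1943 in TRPML3 fed replicates. Its starved values were 1993, 2091 and 1958 with vector and 2098, 2375 and 2022 with TRPML3. The groups did not overlap, but fed replicate 3 came within a few percent of the lowest starved library. Its average log2 difference was 0.38 ± 0.11 (SE; edgeR adjusted p = 0.363) with all libraries and 0.59 ± 0.07 (edgeR adjusted p = 0.0259) without replicate 3.

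SRSF9, a small SR protein close in sequence to SRSF1, differed by less but in every replicate. It had 216, 207 and 195 CPM in vector fed, 191, 197 and 185 in TRPML3 fed, 271, 231 and 252 in vector starved and 222, 285 and 243 in TRPML3 starved libraries. No fed library reached the starved range. The log2 difference was 0.34 ± 0.09 (SE; edgeR adjusted p = 0.363; DESeq2 adjusted p = 0.0315) and 0.33 ± 0.12 without replicate 3 (edgeR adjusted p = 0.165). SRSF9 shares its locus with GATC on the other strand, which had 49.5 to 165 CPM, and since counting by strand is not stated, reads of the pair may not be separated.

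SRSF2 (SC35), a core component of nuclear speckles, was low in 4 fed libraries only. It had 239, 129 and 655 CPM in vector fed and 279, 209 and 569 in TRPML3 fed replicates 1, 2 and 3. Starved levels were 494, 598 and 726 CPM with vector and 628, 642 and 590.0 with TRPML3. Both fed replicate 3 libraries lay inside the starved range, and all other fed libraries lay below it. The log2 difference was 0.82 ± 0.37 (SE; edgeR adjusted p = 0.52) with all libraries and 1.49 ± 0.22 (edgeR adjusted p = 0.0321) without replicate 3.

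SRSF6 (SRp55) followed the same layout, with 152, 131 and 526 CPM in vector fed and 276, 172 and 678 in TRPML3 fed libraries. With starvation it had 289.9, 477 and 441 CPM (vector) and 583, 771 and 473 (TRPML3). Its TRPML3 fed replicate 3 library exceeded 5 of the 6 starved libraries. The log2 difference was 0.64 ± 0.41 (SE; edgeR adjusted p = 0.69) with all libraries and 1.53 ± 0.24 (edgeR adjusted p = 0.0339) without replicate 3.

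SRSF5 (SRp40), an SR gene known to respond to insulin and growth signals, had 266, 207 and 396 CPM in vector fed and 238, 197 and 382 in TRPML3 fed libraries. It had 392, 410.4 and 276 CPM in vector starved and 459, 492 and 349.5 in TRPML3 starved libraries. In replicates 1 and 2 all starved libraries lay above all fed ones, while in replicate 3 the fed libraries were higher. The log2 difference was 0.49 ± 0.21 (SE; edgeR adjusted p = 0.498) and, without replicate 3, 0.96 ± 0.12 (edgeR adjusted p = 0.0259).

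SRSF1 (SF2/ASF), the prototype SR protein, spread from 237 to 1135 CPM and less regularly. It had 237, 378 and 1135 CPM in vector fed, 621, 485 and 689.5 in TRPML3 fed, 510.2, 822 and 846 in vector starved and 834, 738 and 593 in TRPML3 starved libraries. Vector fed replicate 3 held its highest value. Its log2 difference was 0.29 ± 0.33 (SE; edgeR adjusted p = 0.848) with all libraries and 0.82 ± 0.22 (edgeR adjusted p = 0.0971) without replicate 3. SRSF7 and SRSF8 did not overlap between fed and starved libraries once replicate 3 was left out, with log2 differences of 0.42 ± 0.12 (SE; edgeR adjusted p = 0.115) and 0.83 ± 0.20 (edgeR adjusted p = 0.08). With all libraries these values were 0.17 ± 0.15 and 0.29 ± 0.32.

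The remaining SRSF genes showed no such layout. SRSF4 (SRp75) was the steadiest, at 312 to 452 CPM over the 12 libraries. SRSF11 ranged from 138 to 329.7 CPM. SRSF10, a splicing repressor when dephosphorylated, had its highest values in fed replicate 3, at 75.9 CPM with vector and 50.6 with TRPML3, against 8.62 to 41.6 in the other libraries. SRSF12, which was close to the count minimum, stayed between 0.225 and 1.16 CPM.

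**Figure D2:**
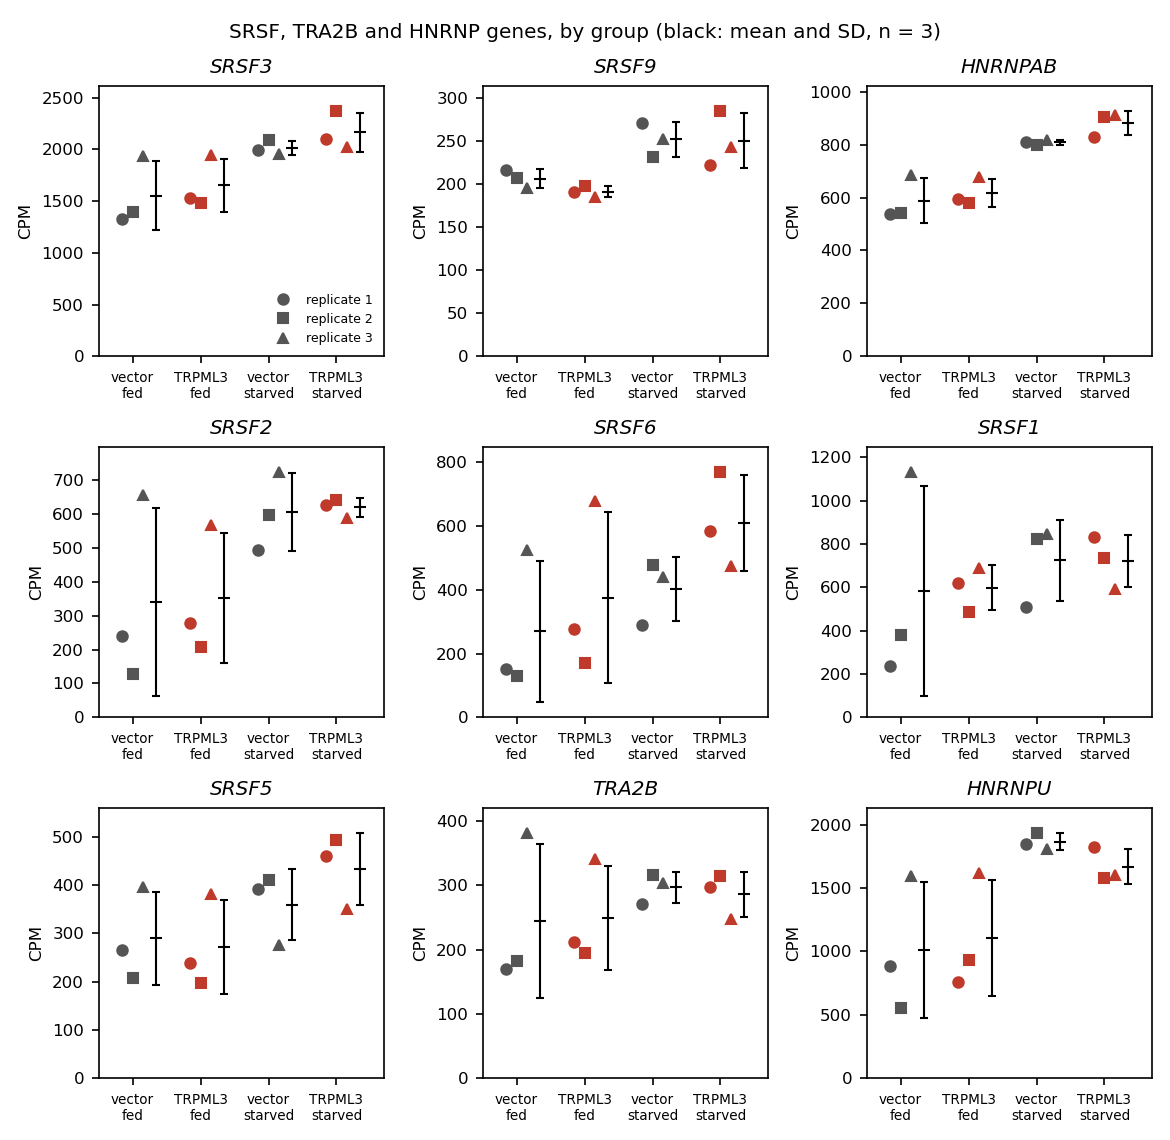
Points give CPM in each library by group for 9 genes, with shape marking the replicate number, grey for vector and red for TRPML3, and black bars the mean and SD of 3 replicates. In SRSF3, SRSF9 and HNRNPAB all starved points lie above all fed points, whereas in SRSF2, SRSF6, SRSF1, SRSF5, TRA2B and HNRNPU the fed triangles (replicate 3) lie among or above the starved points.

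TRA2A and TRA2B encode the transformer-2 proteins, which bind GAA-rich exonic enhancers together with SR proteins. TRA2B had 170.0, 182 and 382 CPM in vector fed, 212, 194 and 341 in TRPML3 fed, 270.4, 316 and 304 in vector starved and 298, 314 and 247 in TRPML3 starved libraries. The highest 2 libraries were the fed replicate 3 libraries. The log2 starvation difference was 0.24 ± 0.22 (SE; edgeR adjusted p = 0.805) with all libraries and 0.67 ± 0.10 (edgeR adjusted p = 0.0297) without replicate 3. TRA2A had 162, 107 and 216 CPM in vector fed and 169, 182 and 127 in vector starved libraries, which overlap. With TRPML3 it had 111, 108 and 104 CPM when fed and 172, 188 and 158 when starved, with no overlap. Averaged over the plasmids its log2 difference was 0.33 ± 0.17 (SE; edgeR adjusted p = 0.583).

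Among the HNRNP genes HNRNPAB (CBF-A), which also binds single-stranded DNA, gave the smallest p among the 41 genes. It had 537, 540.4 and 686 CPM in vector fed, 594, 581 and 677 in TRPML3 fed, 809, 799 and 818 in vector starved and 829, 904 and 914 in TRPML3 starved libraries. The lowest starved library exceeded the highest fed one, and the SD within vector starved cells was 9.09 CPM around a mean of 809 (n = 3). Its log2 difference was 0.49 ± 0.09 (SE; edgeR adjusted p = 0.3; DESeq2 adjusted p = 0.00138) with all libraries and 0.58 ± 0.07 (edgeR adjusted p = 0.0259) without replicate 3.

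HNRNPU (SAF-A), a scaffold attachment protein that binds chromatin-associated RNA, had 885, 551 and 1598 CPM in vector fed and 758, 936 and 1622 in TRPML3 fed libraries. Starved libraries were tightly grouped at 1849, 1937 and 1808 CPM with vector and 1827, 1578 and 1602 with TRPML3. Fed replicates 1 and 2 lay below every starved library, and fed replicate 3 lay at the lower end of the starved range. The log2 difference was 0.74 ± 0.25 (SE; edgeR adjusted p = 0.407) and, without replicate 3, 1.21 ± 0.17 (edgeR adjusted p = 0.0294).

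HNRNPA0, which binds AU-rich elements and is a substrate of the stress kinase MK2, had 201 to 204 CPM in the 4 fed libraries of replicates 1 and 2 and 277 to 373 in the starved libraries of the same numbers. In replicate 3 the order was turned, with 299 and 277 CPM fed and 243 and 238 starved. Its log2 difference was 0.70 ± 0.11 without replicate 3 (SE; edgeR adjusted p = 0.0346) and 0.37 ± 0.17 with all libraries (edgeR adjusted p = 0.528).

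HNRNPA1, HNRNPA3 and HNRNPDL ran the other way in replicates 1 and 2. HNRNPA1, the most abundant of the family and a classical antagonist of SRSF1, had 4258, 4094, 4185 and 4514 CPM in the fed and 3600.3, 3323, 3283 and 3661 in the starved libraries of replicates 1 and 2. In replicate 3 it had 3609.6 and 4287 CPM fed and 4372 and 5714 starved. Without replicate 3 the fed and starved libraries of these genes and of HNRNPA1L3 did not overlap, with lower starved values; this held for 4 of the 42 genes and for 10.1% of all tested genes. Their log2 differences were -0.29 ± 0.07 for HNRNPA1, -0.31 ± 0.08 for HNRNPA3, -0.44 ± 0.12 for HNRNPDL and -0.60 ± 0.22 for HNRNPA1L3, and none passed edgeR's test (lowest adjusted p = 0.0786). With all libraries they were -0.06 ± 0.14, -0.06 ± 0.13, -0.16 ± 0.16 and 0.15 ± 0.36 in the same order, so the last had the opposite sign (lowest edgeR adjusted p = 0.823). In the same 8 libraries 14 of the 42 genes (13 of the 41) did not overlap with higher starved values, against 10.2% of tested genes.

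Other HNRNP genes varied less regularly. HNRNPUL2, a paralog of HNRNPU with a role in DNA end resection, had 225, 122 and 137 CPM in vector fed, 215, 77.3 and 190.0 in TRPML3 fed, 11, 144 and 84.8 in vector starved and 43, 47.4 and 88.3 in TRPML3 starved libraries. Its log2 starvation difference of -1.22 ± 0.51 was the lowest of the 42 (SE; edgeR adjusted p = 0.488), and the groups overlapped. It overlaps the readthrough gene HNRNPUL2-BSCL2 on the same strand, which had 0.398 to 35.9 CPM. HNRNPLL, a regulator of CD45 splicing in lymphocytes, had 15, 18.1 and 17.5 CPM in vector fed and 9.57, 8.88 and 10.5 in vector starved libraries, with no overlap, but with TRPML3 it had 7.97 to 21.6 fed and 10.3 to 14.5 starved. HNRNPA2B1 ranged from 919 to 3046 CPM, both extremes in TRPML3 libraries of replicate 3.

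HNRNPC, which binds uridine tracts and keeps Alu exons out of mRNA, had 1057, 1169 and 654 CPM in vector fed, 639, 591 and 1236 in TRPML3 fed, 639, 736 and 717 in vector starved and 857, 963 and 654 in TRPML3 starved libraries. In fed cells of replicates 1 and 2 it was lower with TRPML3, and in replicate 3 the order was the opposite. The other HNRNP genes moved within narrower or unrelated ranges over the 12 libraries. HNRNPK, a poly(C)-binding protein, lay between 799.9 and 1363 CPM, and HNRNPD (AUF1), which binds AU-rich elements and promotes decay, between 632 and 1004. The G-tract binders HNRNPH1, HNRNPH2 and HNRNPH3 ranged from 1133 to 2164, 149.5 to 265 and 418 to 675 CPM. HNRNPR ranged from 165 to 539 CPM, with its highest values in replicate 2 of vector cells, and HNRNPUL1 from 207 to 414. HNRNPL, which binds CA repeats, ranged from 26.3 to 56.5 CPM and HNRNPA1L3 from 14.1 to 55.2.

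No CLK kinase passed the adjusted test of edgeR or DESeq2 for average starvation. CLK1, whose own pre-mRNA is known to be held partly spliced in the nucleus, had 148, 126 and 104 CPM in vector fed, 141, 91.9 and 100.5 in TRPML3 fed, 85.3, 94.1 and 164 in vector starved and 116, 111 and 225 in TRPML3 starved libraries. Its highest values were the starved replicate 3 libraries, and the others overlapped. CLK4, its closest paralog, had 50, 28.5 and 18.7 CPM in vector fed, 30.5, 41.6 and 32.8 in TRPML3 fed, 37.1, 50.6 and 56.7 in vector starved and 43.8, 39.8 and 40.7 in TRPML3 starved libraries.

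CLK2, a kinase also known for a metabolic role in liver, was low, at 10.9, 7.52 and 11.7 CPM in vector fed, 9.05, 8.47 and 9.2 in TRPML3 fed, 12.2, 12.1 and 13.6 in vector starved and 9.7, 11.1 and 19.5 in TRPML3 starved libraries. Within each plasmid its starved libraries lay above the fed ones. CLK3 had 52.1, 42.6 and 33.3, 38.2, 33.4 and 33.3, 36.5, 38.6 and 40.5, and 31.3, 37.5 and 45.3 CPM in the same order of groups, all overlapping. The log2 starvation differences were 0.15 ± 0.24 for CLK1, 0.46 ± 0.21 for CLK2, -0.01 ± 0.16 for CLK3 and 0.41 ± 0.23 for CLK4, with edgeR adjusted p-values of 0.904, 0.546, 0.99 and 0.636. CLK3 overlaps EDC3 on the other strand, which had 68.7 to 164 CPM, more than CLK3 itself.

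DDX17 (p72) was lowest in vector fed cells. In vector fed libraries it had 443, 573 and 424 CPM, and in vector starved libraries 2152, 2003 and 1299. With TRPML3 it had 841, 944 and 2034 CPM when fed and 2240.3, 2246 and 1060.5 when starved. The vector fed libraries lay below all 9 others, which overlapped one another. The log2 difference between starved and fed was 1.92 ± 0.39 with vector and 0.54 ± 0.38 with TRPML3 (SE), and between TRPML3 and vector it was 1.41 ± 0.38 in fed and 0.02 ± 0.38 in starved cells. Without replicate 3 the average starvation difference was 1.69 ± 0.11, and with all libraries 1.23 ± 0.27. These values chose the gene and are untested.

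DDX5 (p68), its paralog and usual partner, did not follow it. It had 1105, 1124 and 1428 CPM in vector fed, 1275, 1384 and 1485 in TRPML3 fed, 1477, 1357 and 624 in vector starved and 597, 1413 and 569.9 in TRPML3 starved libraries. Its 3 lowest libraries were all starved, and the other 3 starved libraries lay within the fed range. The log2 starvation difference was -0.38 ± 0.27 (SE; edgeR adjusted p = 0.715). The ratio of DDX17 to DDX5 was 0.401, 0.51 and 0.297 in vector fed, 0.66, 0.682 and 1.37 in TRPML3 fed, 1.46, 1.48 and 2.08 in vector starved and 3.75, 1.59 and 1.86 in TRPML3 starved libraries, so it exceeded 1 in every starved library and in 1 fed library. This ratio contains DDX17 and is likewise a description.

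**Figure D3:**
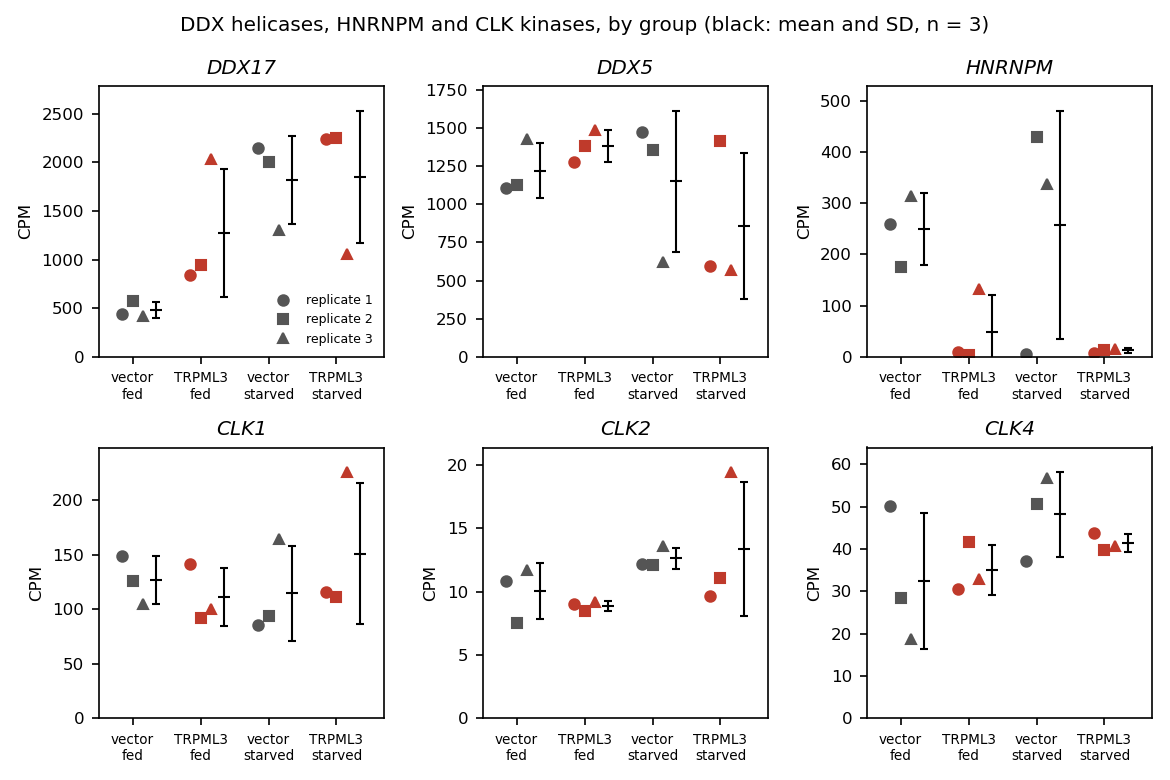
Points give CPM in each library by group for DDX17, DDX5, HNRNPM, CLK1, CLK2 and CLK4, with shape marking the replicate number, grey for vector and red for TRPML3, and black bars the mean and SD of 3 replicates. DDX17 is at 424 to 573 CPM in vector fed libraries and above 800 in all others, DDX5 has its 3 lowest points among starved libraries, and HNRNPM has 1 vector library at 6.02 CPM among those at 175 or more.

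In vector cells alone, starvation gave 4 of the 41 genes at an unadjusted p under 0.05 (HNRNPAB, HNRNPU and SRSF3 higher, HNRNPLL lower), against 4.44% of tested genes, and 0 at an adjusted p under 0.05 with edgeR (0.00555% of tested genes). The largest log2 differences after DDX17 were 0.88 ± 0.36 for HNRNPU and 0.83 ± 0.52 for SRSF2 (SE), and the lowest were -1.23 ± 0.92 for HNRNPA1L2, -1.01 ± 0.72 for HNRNPUL2 and -0.80 ± 0.35 for HNRNPLL. DESeq2 called none of the 41 in this comparison (0.239% of tested genes). Starved and fed vector libraries did not overlap for 5 of the 41 genes with starved higher, namely CLK2, HNRNPAB, HNRNPU, SRSF3 and SRSF9 (5.36% of tested genes), and for HNRNPA2B1 and HNRNPLL with starved lower (4.57%). Without replicate 3, 18 of the 41 genes had an unadjusted p under 0.05 (14.5% of tested genes) and 0 passed edgeR's adjusted test (0.0%).

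In TRPML3 cells, starvation gave 6 of the 41 genes at an unadjusted p under 0.05, all higher: HNRNPAB, HNRNPL, SRSF3, SRSF5, SRSF9 and TRA2A. The share of all tested genes was 5.71% in either direction and 2.74% upward, and no gene of either kind had an edgeR adjusted p under 0.05 (0.0% of tested genes). DESeq2 likewise called none of the 41 (0.49% of tested genes). The largest log2 differences were 1.93 ± 0.90 for HNRNPA1L2, 1.05 ± 0.50 for SRSF12 and 0.82 ± 0.52 for SRSF2 (SE), of which the first 2 rest on levels near or under 1 CPM. The lowest were -1.97 ± 1.36 for HNRNPM, -1.43 ± 0.72 for HNRNPUL2 and -0.68 ± 0.38 for DDX5. HNRNPM turned to 0.70 without replicate 3, which leaves out the 1 fed TRPML3 library with a high level. No overlap was found for 10 of the 41 genes, all with starved higher (5.56% of tested genes; 5.66% with starved lower): CLK2, HNRNPA1L2, HNRNPAB, HNRNPL, HNRNPR, SRSF2, SRSF3, SRSF9, SRSF12 and TRA2A. Without replicate 3, 14 of the 41 had an unadjusted p under 0.05 (16.1% of tested genes) and 0 passed edgeR's adjusted test (0.00554%).

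TRPML3 itself went with few differences in these genes, as it did over the tested genes at large. In fed cells, 1 of the 41 genes had an unadjusted p under 0.05 (2.21% of tested genes) and 0 passed edgeR's adjusted test (0.0111% of tested genes) or DESeq2's (0.167%). That gene was TRA2A, whose log2 difference was -0.59 ± 0.24 (SE). Replicate numbers paired the fed libraries of the plasmids. With the number as a block in edgeR, TRA2A had an unadjusted p of 0.0546 and HNRNPM one of 0.0463. The block gave each number 1 effect shared by all 4 groups, so this was not a test paired within fed cells. The lowest values were -2.36 ± 1.37 for HNRNPM, -0.81 ± 0.50 for SRSF12 and -0.74 ± 0.68 for SRSF10, and the highest after DDX17 were 0.48 ± 0.58 for SRSF6 and 0.26 ± 0.25 for HNRNPUL1. Fed libraries of the plasmids did not overlap for HNRNPF and HNRNPH2 with TRPML3 higher (3.22% of tested genes) and for HNRNPL, HNRNPM and SRSF12 with TRPML3 lower (3.87%). Without replicate 3, HNRNPC (-0.84 ± 0.13), HNRNPLL (-0.86 ± 0.24), HNRNPM (-5.05 ± 1.81) and SRSF1 (0.86 ± 0.32) were the 4 of 41 genes at an unadjusted p under 0.05 (4.1% of tested genes), and 0 passed edgeR's adjusted test (0.0166%).

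In starved cells, HNRNPA1L2 and HNRNPM were the 2 of 41 genes at an unadjusted p under 0.05 (2.2% of tested genes), and 0 passed edgeR's adjusted test (0.00555%) or DESeq2's (0.239%). HNRNPA1L2 had 0.0979, 0.107 and 0.473 CPM with vector and 1.37, 2.19 and 2.72 with TRPML3, a log2 difference of 3.18 ± 0.95 (SE). Its reads can be shared with HNRNPA1 and its pseudogenes, so its low level is uncertain. SRSF12 followed at 1.03 ± 0.50 and HNRNPA2B1 at 0.73 ± 0.43, and the lowest values beside HNRNPM were -0.86 ± 0.68 for SRSF10 and -0.42 ± 0.71 for HNRNPUL2. The plasmids did not overlap for HNRNPA1L2 and HNRNPAB, both higher with TRPML3 (3.02% of tested genes), and for no gene with TRPML3 lower (3.56%). Without replicate 3, 5 of the 41 genes had an unadjusted p under 0.05 (4.1% of tested genes): HNRNPA1L2, HNRNPC and SRSF6 were higher with TRPML3, and HNRNPM and SRSF10 were lower.

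HNRNPM was high in most vector libraries and low in most TRPML3 libraries. It had 259, 175 and 315 CPM in vector fed and 6.02, 430.2 and 338 in vector starved libraries. With TRPML3 it had 9.41, 3.52 and 133 CPM fed and 6.72, 14.2 and 16.2 starved. Of 6 vector libraries 5 had 175 CPM or more, and 5 of 6 TRPML3 libraries had 16.2 CPM or less, with 1 exception on each side. The average log2 difference between TRPML3 and vector was -3.37 ± 1.01 (SE; edgeR adjusted p = 1), and DESeq2 gave -3.37 ± 0.84 (DESeq2 adjusted p = 0.0424), where it called 0.161% of tested genes. Averaged over serum states, 2 of the 41 genes, HNRNPM and HNRNPA1L2 (1.60 ± 0.64), had an unadjusted p under 0.05 in edgeR (2.62% of tested genes). No gene among the 41 passed the edgeR adjusted test (0.0111%). Other low values were -0.80 ± 0.48 for SRSF10 and -0.43 ± 0.25 for HNRNPR, and SRSF6 was the highest after HNRNPA1L2 and DDX17, at 0.54 ± 0.41. Without replicate 3, SRSF1, SRSF6 and SRSF10 joined HNRNPM and HNRNPA1L2 at an unadjusted p under 0.05, making 5 of 41 (4.59% of tested genes). In none of the 42 did all 6 TRPML3 libraries lie above (0.061% of tested genes) or below (0.0943%) all 6 vector libraries.

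Whether TRPML3 altered the starvation difference was tested as an interaction. The test gave 2 of the 41 genes at an unadjusted p under 0.05, HNRNPA1L2 (3.16 ± 1.29) and SRSF12 (1.84 ± 0.70), against 2.07% of tested genes, and 0 at an adjusted p under 0.05 with edgeR (0.0% of tested genes) or DESeq2 (0.15%). Both genes were among the least abundant of the 42. The next highest was HNRNPA2B1 at 0.88 ± 0.61, and the lowest were HNRNPM at -2.02 ± 1.87, DDX17 at -1.38 ± 0.53 and DDX5 at -0.60 ± 0.53. Without replicate 3 there were 3 of 41 at an unadjusted p under 0.05 (4.01% of tested genes), HNRNPA1L2, HNRNPC and HNRNPLL. Thus none of the starvation differences listed above for single plasmids was shown to differ between them.

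**Figure D4:**
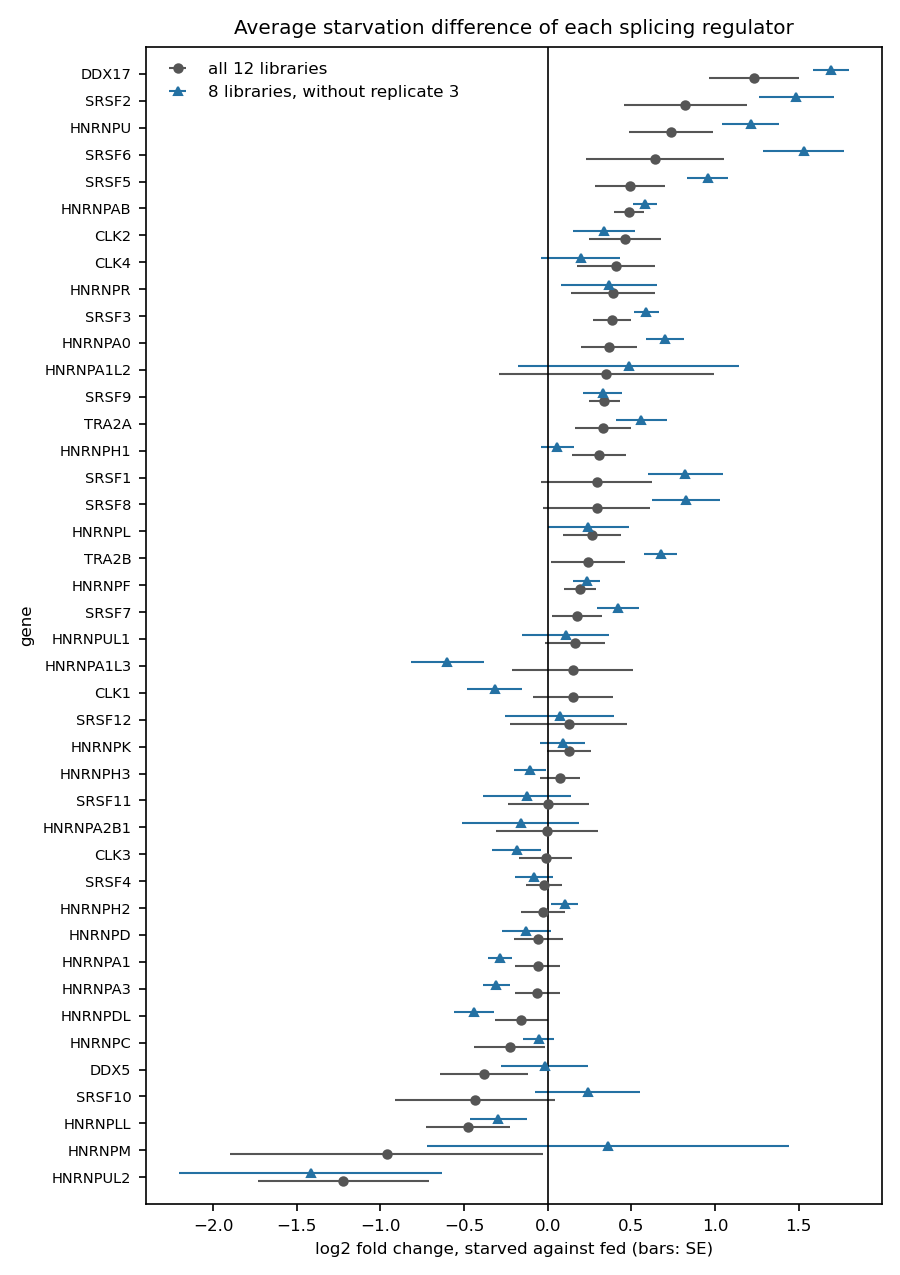
The horizontal axis gives the average log2 fold change of starved against fed cells with its SE, for each of the 42 genes, from all 12 libraries (grey circles) and from the 8 libraries without replicate 3 (blue triangles). Leaving out replicate 3 moves SRSF2 from 0.82 to 1.49, SRSF5 from 0.49 to 0.96, HNRNPU from 0.74 to 1.21 and TRA2B from 0.24 to 0.67, and leaves SRSF9 at 0.34 and 0.33.

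Starved minus fed differences taken by replicate number show where the libraries part. Averaged over both plasmids, 27, 28 and 27 of the 42 genes were higher in the starved library of replicates 1, 2 and 3, yet the genes were not all the same. SRSF2 had log2 differences of 1.11, 1.92 and 0.10, SRSF6 1.01, 2.02 and -0.39, SRSF5 0.75, 1.15 and -0.32, and HNRNPU 1.17, 1.28 and 0.08. HNRNPAB (0.54, 0.60 and 0.34) and SRSF9 (0.28, 0.34 and 0.38) were positive in each. HNRNPA1 had -0.30, -0.30 and 0.35, and CLK1 -0.54, -0.07 and 0.91. These numbers name libraries, and a pairing of fed with starved samples was not established. Deviations from group means correlated at -0.076 to 0.0075 between same-numbered fed and starved libraries. Mitochondrial share, however, followed the number in all 4 groups.

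By their log2 CPM over the 12 libraries, the genes most like DDX17 were HNRNPF (Pearson r = 0.783), SRSF3 (0.735) and HNRNPAB (0.703), and those least like it were HNRNPUL2 (-0.551), HNRNPDL (-0.505) and HNRNPA3 (-0.494). HNRNPF, which binds G-tracts, had 346 to 408 CPM in vector fed libraries and 403 to 526 in the other 9, so 1 vector fed library overlapped the others. DDX5 had a value of -0.06. The 12 points share libraries, groups and scaling, so these values describe the set.

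Identity limits some of the values. CLK2, HNRNPH1, HNRNPL and HNRNPR carry identifiers that are not those of the primary assembly in GENCODE 29, so their reads may be divided with another copy of the locus and no level per kb is given. Another gene row with at least 120 counts overlapped 14 of the 42 genes, 2 of them on the same strand (HNRNPH2 with RPL36A-HNRNPH2 and HNRNPUL2 with HNRNPUL2-BSCL2). HNRNP genes also have many processed pseudogenes. The table holds 123 such rows, of which 36 had at least 120 counts, and together they took 186 to 355 CPM per library.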

How the data were processed

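RNA of 12 HEK293T libraries in 4 groups of 3 was analysed from the deposited table of raw counts per gene (41878 genes). Per the submitters' processing notes, FastQC, fastp, HISAT2, StringTie and DESeq2 were used with GRCh38; their roles and versions, the annotation and whether strand was used are not given in the sources used here, so the whole numbers may be rounded estimates. A second table deposited by the authors holds a normalized signal for 23252 genes, equal to the raw count divided by a factor constant within each library, and served only for limma-trend (log2 of the value + 1 or + 0.5).

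Counts were tested with edgeR 4.0.16 in R 4.3.3 (TMM, filterByExpr on group, robust quasi-likelihood fit over all 12 libraries, 8 residual degrees of freedom, 18030 genes, Benjamini-Hochberg adjustment at 0.05). All 42 genes passed the filter. Contrasts were TRPML3 against vector in each serum state, starved against fed with each plasmid, their interaction and the 2 averages. CPM were scaled by TMM, and lengths are merged exons of GENCODE 29. The genes, lists and naming rule (families in full, the 3 highest and 3 lowest log2 values of each contrast, and genes at an unadjusted p under 0.05) were chosen with earlier results of these data known. Alternatives were DESeq2 1.42.0, limma 3.58.1, other scalings and filters, the replicate number as a block, and left-out replicates; leaving out a replicate number in all groups was chosen after seeing the data. The pipeline was tested on simulated data.

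Deviations from group means correlated between same-numbered fed libraries of the plasmids at 0.11, 0.15 and 0.33 (r over 18030 genes), so these numbers were taken as paired. The values were 0.13, 0.095 and 0.32 in starved cells and -0.076 to 0.0075 between fed and starved cells. The main fit had no block for the number, which entered only as an alternative. No 2 libraries agreed within counting noise (chi-square per degree of freedom at least 139 over 66 pairs). Replicates are biological per the labels.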

Additional observations from a re-analysis of the deposited data

How the results depend on the processing

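Counts of genes past a threshold in this section are over the 41 genes without DDX17. Fold changes of DDX17 were followed as a description. Of 66 log2 fold changes followed, 55 kept their direction under all 23 alternatives. With all libraries edgeR called 0 of the 41 genes in every comparison. Of the 41 genes, DESeq2's Wald test called 2 in average starvation, 1 in average TRPML3 (HNRNPM) and 0 in vector starvation. Leaving out replicate 3 in all groups called 8 of the 41 in average starvation. With the replicate block none of the 41 genes was called. In average starvation 10 of them had an unadjusted p under 0.05, against 8 without the block. The share of all tested genes under the block is not given here, so these counts are a description. CLK2, HNRNPF, HNRNPR and SRSF6 entered, and HNRNPA0 and HNRNPUL2 left. In average TRPML3, SRSF10 entered beside HNRNPM and HNRNPA1L2 (edgeR with block, unadjusted p = 0.0216 for SRSF10). The block moved no count by over 1.5 times. Under limma-trend, 1 gene in place of 2 had an unadjusted p under 0.05 for TRPML3 in starved cells with either pseudocount. For vector starvation there were 7 in place of 4 with a pseudocount of 0.5. Shares of all tested genes under limma-trend are not given here.

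Over left-out replicates, genes at an unadjusted p under 0.05 ranged from 1 to 5 (2 in all libraries) for TRPML3 in fed cells, with 5 when fed replicate 3 of either plasmid was out and 1 when replicate 1 of either was out. They ranged from 2 to 5 for TRPML3 in starved cells (4 without TRPML3 starved replicate 2), 0 to 6 for average TRPML3 (5 without vector fed replicate 3), 4 to 19 for average starvation (14 without vector fed replicate 3) and 0 to 4 for the interaction (0 without vector fed replicate 1, 1 without vector starved replicate 1 or TRPML3 starved replicate 3). For starvation they ranged from 2 to 15 with TRPML3 (3 without TRPML3 fed replicate 1, 11 without its replicate 3) and from 2 to 19 with vector (2 without vector fed replicate 2 or vector starved replicate 1, 3 without vector fed replicate 1 or vector starved replicate 3, 9 without vector fed replicate 3). Genes called in average starvation ranged from 0 to 9 over these. Over the 41 genes the ranges were 0 to 4 for TRPML3 in fed cells, 2 to 5 in starved cells, 0 to 5 on average, 3 to 18 for average starvation, 0 to 4 for the interaction, 2 to 14 for starvation with TRPML3 and 1 to 18 with vector, and 0 to 8 for calls in average starvation.

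Some directions turned, and the cause was not tested. As edgeR with all libraries called no gene, none of these could be of a called gene. Over left-out replicates, the average starvation value ranged from -0.29 to 0.051 for HNRNPA1, -0.31 to 0.079 for HNRNPA3, -0.44 to 0.029 for HNRNPDL, -1.68 to 0.49 for HNRNPM, -0.063 to 0.42 for SRSF7 and -0.095 to 0.83 for SRSF8. The upper end was without replicate 2 for HNRNPA1 and HNRNPA3, without replicate 1 for HNRNPDL and without TRPML3 fed replicate 3 for HNRNPM, and the lower end without replicate 2 for SRSF7 and SRSF8. HNRNPM ranged from -2.64 to 0.93 for starvation with TRPML3 and from -2.80 to 0.89 for the interaction, positive without TRPML3 fed replicate 3, and its interaction was 0.81 under limma-trend with both pseudocounts. HNRNPUL2 ranged from -0.94 to 0.43 for TRPML3 in starved cells, highest without replicate 2, and was 0.13 under both limma-trend fits. For TRPML3 in fed cells SRSF10 ranged from -1.78 to 0.018 (highest without vector fed replicate 3) and SRSF6 from -0.26 (without TRPML3 fed replicate 3) to 1.41. Counting error is small for most of the 42 genes, but SRSF12 and HNRNPA1L2 rest on 260 and 357 counts over all libraries. Where an arm keeps 2 libraries, its spread is taken from all groups.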

Other observations

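Other genes of splicing and RNA surveillance, taken from lists chosen with earlier results known, were described in the same average starvation fit. Nonsense-mediated decay and exon junction complex genes were above 0 in 14 of 15 cases, with a median log2 difference of 0.35 against 0.01 over all tested genes; 5 were at an unadjusted p under 0.05, all higher in starved cells (4.66% of tested genes), and 0 at an edgeR adjusted p under 0.05. The largest among those at that threshold were UPF3A (0.96 ± 0.36, SE), RBM8A (0.72 ± 0.32), EIF4A3 (0.41 ± 0.13) and UPF2 (0.35 ± 0.10). Core spliceosome genes were above 0 in 26 of 34 cases (median 0.21), with 6 at an unadjusted p under 0.05, all higher, among them SF3B3 (0.90 ± 0.22), PRPF4 (0.90 ± 0.31), SF1 (0.73 ± 0.31) and DHX15 (0.38 ± 0.15). SF3B3 overlapped with vector, at 229 to 460 CPM fed and 231 to 379 starved. With TRPML3 it had 75.8 to 140 CPM fed and 337.5 to 485.5 starved. Of 12 other RNA helicases 10 were above 0 (median 0.28), with DDX39A (0.58 ± 0.12), DDX3X (0.47 ± 0.14) and DDX23 (0.33 ± 0.12) at an unadjusted p under 0.05. The share of tested genes at that threshold in either direction was 9.45%. Without replicate 3 the medians of these lists were 0.52, 0.20 and 0.43, and edgeR called UPF1 (0.61 ± 0.11), EFTUD2 (0.44 ± 0.09), PRPF4 (1.32 ± 0.20), DDX23 (0.54 ± 0.09) and DDX39A (0.71 ± 0.13), all higher in starved cells (2.54% of tested genes).

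SR-related proteins and 3′ splice site factors were above 0 in 12 of 17 cases (median 0.14), with SCAF1 (3.21 ± 1.06) and U2AF1 (0.55 ± 0.23) at an unadjusted p under 0.05, 2 of 17 against 9.45% of tested genes. SCAF1 had 10.2, 17.5 and 64.8 CPM in vector fed and 3.75, 59.3 and 64.1 in vector starved libraries, which overlap. With TRPML3 it had 0.36, 0.182 and 0.913 CPM fed, near the floor, and 23.2, 67 and 0.347 starved. Of 33 other RNA-binding splicing regulators 21 were above 0 (median 0.04), with KHDRBS3 (1.30 ± 0.54), RBM17 (0.39 ± 0.17) and PTBP1 (0.32 ± 0.10) higher and the neuronal regulator NOVA1 lower (-0.77 ± 0.23) at that threshold, 4 of 33. Both shares are near that of all tested genes. Among 4 tested SR protein kinases SRPK1, which phosphorylates SR proteins in the cytoplasm, was at that threshold (1.08 ± 0.33). Without replicate 3, edgeR called BCLAF1 (1.14 ± 0.22), RBM17 (0.69 ± 0.11) and RBM5 (0.95 ± 0.12) as higher and SON, a speckle scaffold, as lower (-1.16 ± 0.15) in starved cells, against 4.49% of tested genes called in either direction. These lists hold genes of many functions, and no comparison between lists was tested.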
